A study of Mus musculus with 22 samples.

Results

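The genes described here are 35 genes listed for megakaryocytes, the bone marrow and fetal liver cells that release platelets, and for platelets themselves. They were taken by name from a list, which was chosen with earlier results of these data known. They were read in haematopoietic stem cell samples of the mouse fetal liver. Of the 35, 32 had a probe that carried their symbol alone, among 22180 genes with such a probe on the array. Gp1ba and Ptgs1 were listed with no such probe, and the probe of Gp1bb was shared with Septin5, so these 3 genes have no value below.

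Livers of wild-type C57Bl/6J embryos at E14.5 were kept in culture over OP9-DL1 stroma, a marrow-derived line that carries the Notch ligand Dll1, and SLAM LSK cells, the stem cell fraction defined by the markers Sca-1, Kit and the SLAM family, were sorted afterwards. Cultures lasted 4 h or 10 h and received either a gamma-secretase inhibitor at 1 µM (GSI) or its solvent DMSO. The shorter culture had 7 arrays of each treatment and the longer one 4. DMSO and GSI cultures came as partners, 7 pairs in the first case and 4 in the second, and all 4 groups shared the genotype, the age and the ligand-bearing stroma. The labels do not give the number of embryos behind a culture. Arrays also share codes in their descriptions, whose meaning the labels do not give; arrays with the same code are called a set here, without saying what the set stands for. At 4 h the sets were pair 1, pairs 2 and 3, and pairs 4 to 7, and at 10 h they were pairs 1 and 2, and pairs 3 and 4.

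Stem cells give rise to megakaryocytes in the fetal liver beside the red cell lineage, under the transcription factors Gata1, Fli1, Runx1 and Nfe2. A maturing megakaryocyte fills granules with adhesion proteins, chemokines and clotting factors, builds surface receptors for von Willebrand factor, collagen, thrombin and nucleotides, and releases platelets along tubulin-rich extensions. Part of the stem cell pool already carries transcripts of this lineage, such as Itga2b and Vwf, and several of the genes, among them Vwf, Selp and F2r, are also made by endothelial cells. Gamma-secretase cuts the ligand-bound Notch receptor and so frees its active part, which binds DNA through the protein RBPJ.

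Values are log2 expression values as deposited, so a difference of 1 is a doubling; errors of levels are SDs and errors of differences are SEs. A gene is said to have passed, risen or fallen where limma gave an adjusted p under 0.05 over all 22180 genes. Array medians were 5.03 to 5.12 at 4 h and 4.45 to 4.52 at 10 h. Hes1, a direct Notch target and the check of the inhibitor, ran from 7.49 to 9.76 in DMSO and from 6.20 to 9.01 in GSI at 4 h, and was lower in GSI in 7 of 7 pairs (-0.97 ± 0.088, limma adjusted p = 0.000199). In the 10 h cultures all 4 GSI partners were the lower ones (-1.36 ± 0.117, adjusted p = 4.72e-05). Of the sort's markers, Kit ran from 8.65 to 10.27 over all arrays, and Slamf1 from 3.396 to 4.64 at 4 h and from 4.48 to 5.24 at 10 h, beside a median of all genes in an array of 5.34 to 5.45 and 4.67 to 4.81. Genes used here as markers of other cells were also read. Cdh5, from the endothelial list, ran from 8.73 to 11.82 at 4 h and from 5.39 to 10.03 at 10 h. Whether such RNA came from other cells or from the sorted stem cells was not tested.

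The first comparison asks what a block of gamma-secretase does to the megakaryocyte and platelet genes within 4 h. None of the 32 passed, against 0.00451% of all genes, and 5 had an unadjusted p under 0.05, against 4.21% of all genes. The differences were small: they ran from -0.44 for Slc35d3 to 0.39 for Rab27b, with a median of 0.09 beside 0.01 for all genes. Of the 32, 28 were above 0, beside 54.29% of all genes. The pairs did not share this sign. The median over the genes was 0.60 in pair 4, 0.31 in pair 3, 0.13 in pairs 2 and 7, 0.06 in pair 1, -0.22 in pair 6 and -0.25 in pair 5. Pair 4 had 27 of 32 genes above 0 and pair 6 had 9, beside 51.3% and 52.4% of all genes. Without pair 4 the median over all members fell to 0.02. In pair 4 the means of the erythroid, neutrophil and hepatocyte markers were lower in GSI (-0.71, -0.67 and -0.45). The erythroid mean was lower with GSI in pairs 5, 6 and 7 too (-0.12, -0.38 and -0.59). It was higher in pairs 1, 2 and 3 (0.255, 0.106 and 0.278). In pair 1, which held the largest single rise (Ppbp, 2.44), the means of the neutrophil, stromal and macrophage markers were higher in GSI, by 1.37, 0.89 and 0.70; the part of these cells in the differences was not tested. In sorted pools, fewer cells of a type and less RNA per cell cannot be told apart.

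At 10 h, 3 of the 32 genes passed, against 0.667% of all genes. Mmrn1, which encodes a protein of the alpha granule, and Tbxas1, the enzyme that makes thromboxane, rose with GSI, and Slc35d3, a transporter-family protein needed for platelet dense granules, fell. The other 29 did not pass, and the members did not move as a block: 13 were above 0 and 19 below. Of all genes 46.24% were above 0. The median over the members was -0.05 beside -0.01 for all genes. The same sign held in 4 of 4 pairs for 10 members. Itgb3, Rgs18, Mmrn1, Tbxas1 and Nfe2 were higher in every pair, as 8.47% of all genes were, and Pf4, Itga2b, Gp6, Slc35d3 and Cd9 were lower in every pair, as 8.2% of all genes were. The median over the members was -0.27 within the first set and 0.16 within the second. Stem cell markers were higher at the same time: 12 of 13 measured were above 0 and 5 passed (Hlf, Mecom, Mllt3, Hoxa9 and Flt3), and the mean of the list ran from 6.69 to 7.09 in DMSO and from 7.198 to 7.54 in GSI. Stromal markers were below 0 in 15 of 18 cases, with none passing, and ran from 5.09 to 6.32 and from 4.88 to 5.82. The part of either in the differences was not tested.

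The difference between the effect of GSI at 10 h and that at 4 h was tested on its own, and 0 of the 32 members passed, against 0.018% of all genes. The largest sizes with an unadjusted p under 0.05 were -0.93 ± 0.334 for F2rl2 (adjusted p = 0.412), 0.62 ± 0.198 for Mmrn1 (adjusted p = 0.405) and -0.59 ± 0.272 for Pf4 (adjusted p = 0.528), all from limma. No member's effect at 10 h is therefore shown to differ from that at 4 h.

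**Figure D1:**
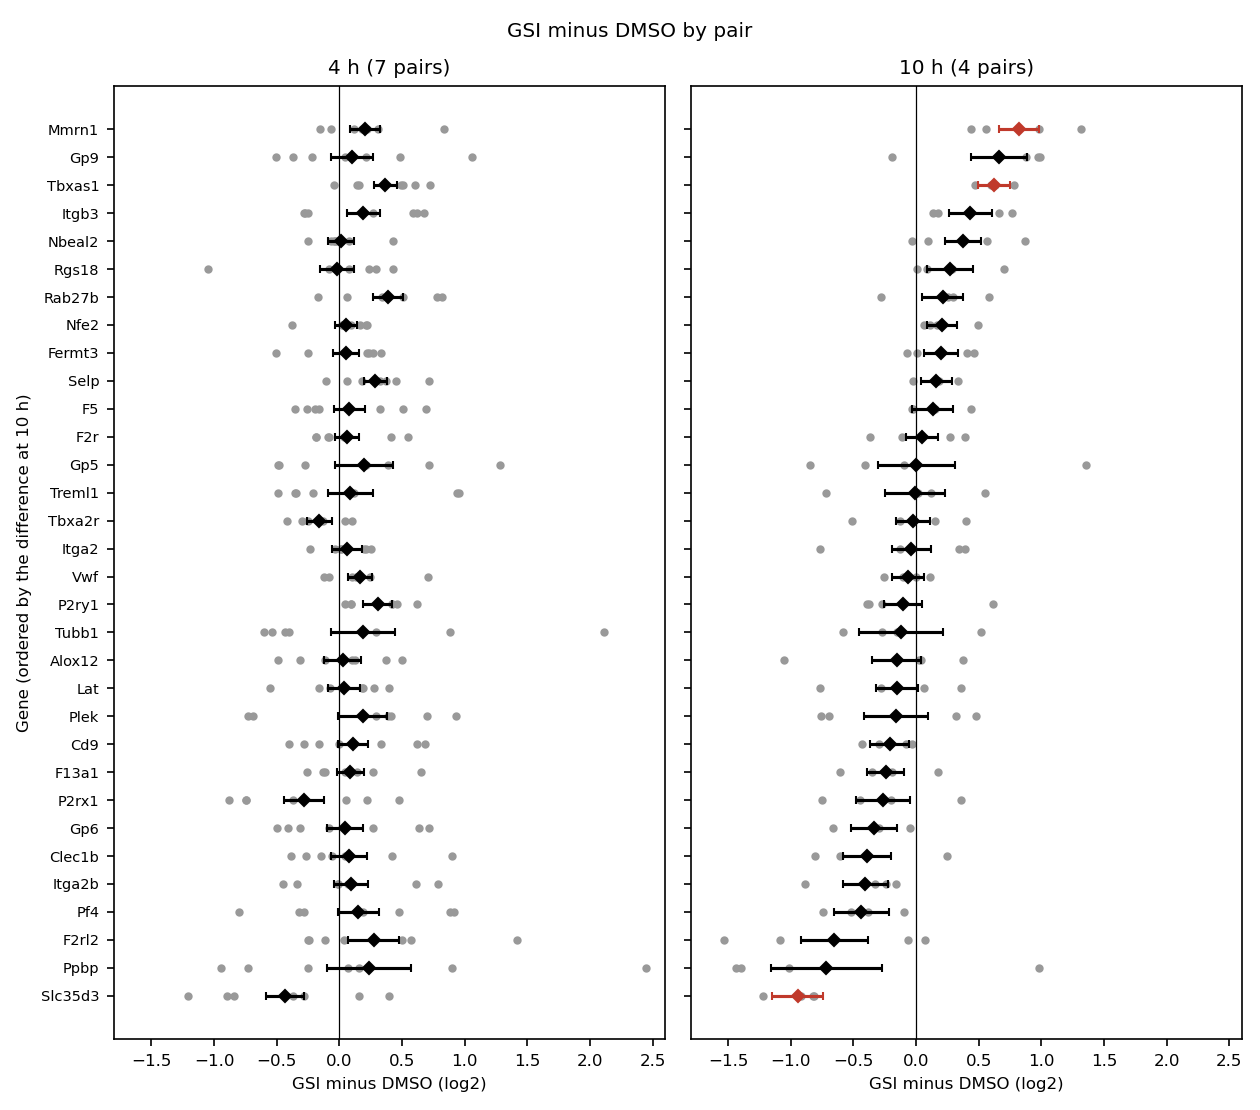
Difference GSI minus DMSO (log2) of each of the 32 measured genes, at 4 h (left, 7 pairs) and 10 h (right, 4 pairs). Grey points are pairs, diamonds the fitted mean and bars its SE; red marks the 3 genes with a limma adjusted p under 0.05. At 4 h the points of nearly every gene lie on both sides of 0, while at 10 h Mmrn1 and Tbxas1 lie above 0 and Slc35d3 below it in 4 of 4 pairs.

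The promoters of these 3 genes are shown because they are the members that passed with GSI, and those of Clec1b and Alox12 because they had the largest falls between 4 h and 10 h. Each window runs from 250 bases before to 50 bases after the start of transcription, 5′ to 3′ on the gene's strand, and comes from RefSeq on the build GRCm38.p6. Capitals mark matches, on either strand, to AGATAA or TGATAA (bound by GATA factors), GGAAGT (ETS factors such as Fli1), TGGGAA (the core bound by RBPJ) and TGAGTCA (the core bound by NF-E2, the Nfe2 complex).
Slc35d3, chr10:19851410-19851709, minus strand: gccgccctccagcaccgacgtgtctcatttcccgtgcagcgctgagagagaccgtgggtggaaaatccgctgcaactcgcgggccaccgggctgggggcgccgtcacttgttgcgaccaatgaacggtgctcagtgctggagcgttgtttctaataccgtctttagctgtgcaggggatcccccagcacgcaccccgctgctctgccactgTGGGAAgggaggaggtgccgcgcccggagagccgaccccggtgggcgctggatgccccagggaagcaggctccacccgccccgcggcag
Mmrn1, chr6:60944067-60944366, plus strand: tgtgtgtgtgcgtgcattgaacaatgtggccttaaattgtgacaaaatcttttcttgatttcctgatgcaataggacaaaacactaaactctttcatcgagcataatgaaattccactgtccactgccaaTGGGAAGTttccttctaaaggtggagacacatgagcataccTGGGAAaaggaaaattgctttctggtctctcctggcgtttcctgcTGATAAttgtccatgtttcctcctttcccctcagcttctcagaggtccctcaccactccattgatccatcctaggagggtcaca
Tbxas1, chr6:38918736-38919035, plus strand: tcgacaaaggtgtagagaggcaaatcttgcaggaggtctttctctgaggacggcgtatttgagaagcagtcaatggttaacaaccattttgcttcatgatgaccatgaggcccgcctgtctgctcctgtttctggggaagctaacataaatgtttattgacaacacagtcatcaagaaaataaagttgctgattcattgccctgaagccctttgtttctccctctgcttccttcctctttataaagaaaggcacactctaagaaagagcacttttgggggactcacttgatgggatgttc
Clec1b, chr6:129397047-129397346, plus strand: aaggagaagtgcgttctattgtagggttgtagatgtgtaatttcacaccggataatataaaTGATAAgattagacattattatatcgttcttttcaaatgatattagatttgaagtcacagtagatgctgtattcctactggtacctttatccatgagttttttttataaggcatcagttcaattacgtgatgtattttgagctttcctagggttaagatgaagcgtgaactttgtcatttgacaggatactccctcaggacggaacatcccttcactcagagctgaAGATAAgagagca
Alox12, chr11:70255321-70255620, minus strand: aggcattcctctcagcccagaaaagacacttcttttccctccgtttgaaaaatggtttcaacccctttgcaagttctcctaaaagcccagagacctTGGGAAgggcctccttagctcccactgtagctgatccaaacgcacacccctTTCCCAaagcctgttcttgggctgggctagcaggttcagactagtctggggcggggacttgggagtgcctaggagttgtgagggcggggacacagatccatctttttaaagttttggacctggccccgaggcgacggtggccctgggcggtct
Of the 3 genes that passed with GSI, Slc35d3 holds 1 match to TGGGAA, at -39 from the start, and Mmrn1 holds 2, at -120 and -79, the first of which overlaps a match to GGAAGT. Mmrn1 also has TGATAA, and Tbxas1 has none of the 5 motifs in this window. Clec1b holds both GATA forms, with AGATAA lying 37 bases after the start, and Alox12 holds TGGGAA once on each strand. A promoter was listed for 30 of the 35 genes, in 32 windows, and not for Itgb3, Rgs18, Vwf, Nfe2 and Rab27b. TGGGAA lay in 12 of the 32 windows (37.5%), against 25.6% of 32851 mouse promoter windows of this length. GGAAGT lay in 34.4% against 23.8%, AGATAA in 18.8% against 11.2%, TGATAA in 9.38% against 9.05%, and TGAGTCA in 6.25% against 5.2%. These are counts of letters and say nothing of binding.

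The longer culture is the second comparison, made within DMSO and within GSI. No set of arrays spans the 2 times, so a difference between sets would not show apart from time, and it is not stated whether both sets were normalized together. The median of all genes was lower at 10 h by -0.41 in DMSO and -0.42 in GSI as deposited. It was higher by 0.19 in both after each array was centred on its median, and by 0.04 and 0.03 after quantile normalization. As deposited, 17 of the 32 members were lower at 10 h in DMSO, against 58.1% of all genes, and 16 in GSI, against 65%. None was higher, against 2.09% and 2.12% of all genes. In either direction 60.2% of all genes passed in DMSO and 67.2% in GSI. After centring, 8 were lower and 3 higher in DMSO, against 12.5% and 36.9% of all genes, and 10 lower and 2 higher in GSI, against 13.2% and 37.6%. After quantile normalization the counts were 8 lower and 3 higher, against 15.2% and 18.7%, and 10 lower and 1 higher, against 17% and 19%. Itga2, Clec1b, F5, Alox12, Tbxas1 and Cd9 were lower in both treatments under all 3 scalings. The share of all genes that meet this joint rule was not computed. Beside them, all 14 endothelial markers were lower as deposited, with medians of -2.31 in DMSO and -2.46 in GSI. So were 11 of 12 hepatocyte markers (-2.78 and -2.74) and 8 of 12 macrophage markers (-1.09 and -1.32) in each treatment. Of 13 stem cell markers 8 were lower in DMSO and 6 in GSI. For 18 stromal markers the counts were 14 and 18, and for 8 T cell markers 6 and 6. They were 0 and 0 for 12 erythroid markers, 0 and 1 for 12 neutrophil markers, and 2 and 3 for 10 mast cell markers. The part of these cells in the falls was not tested.

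**Figure D2:**
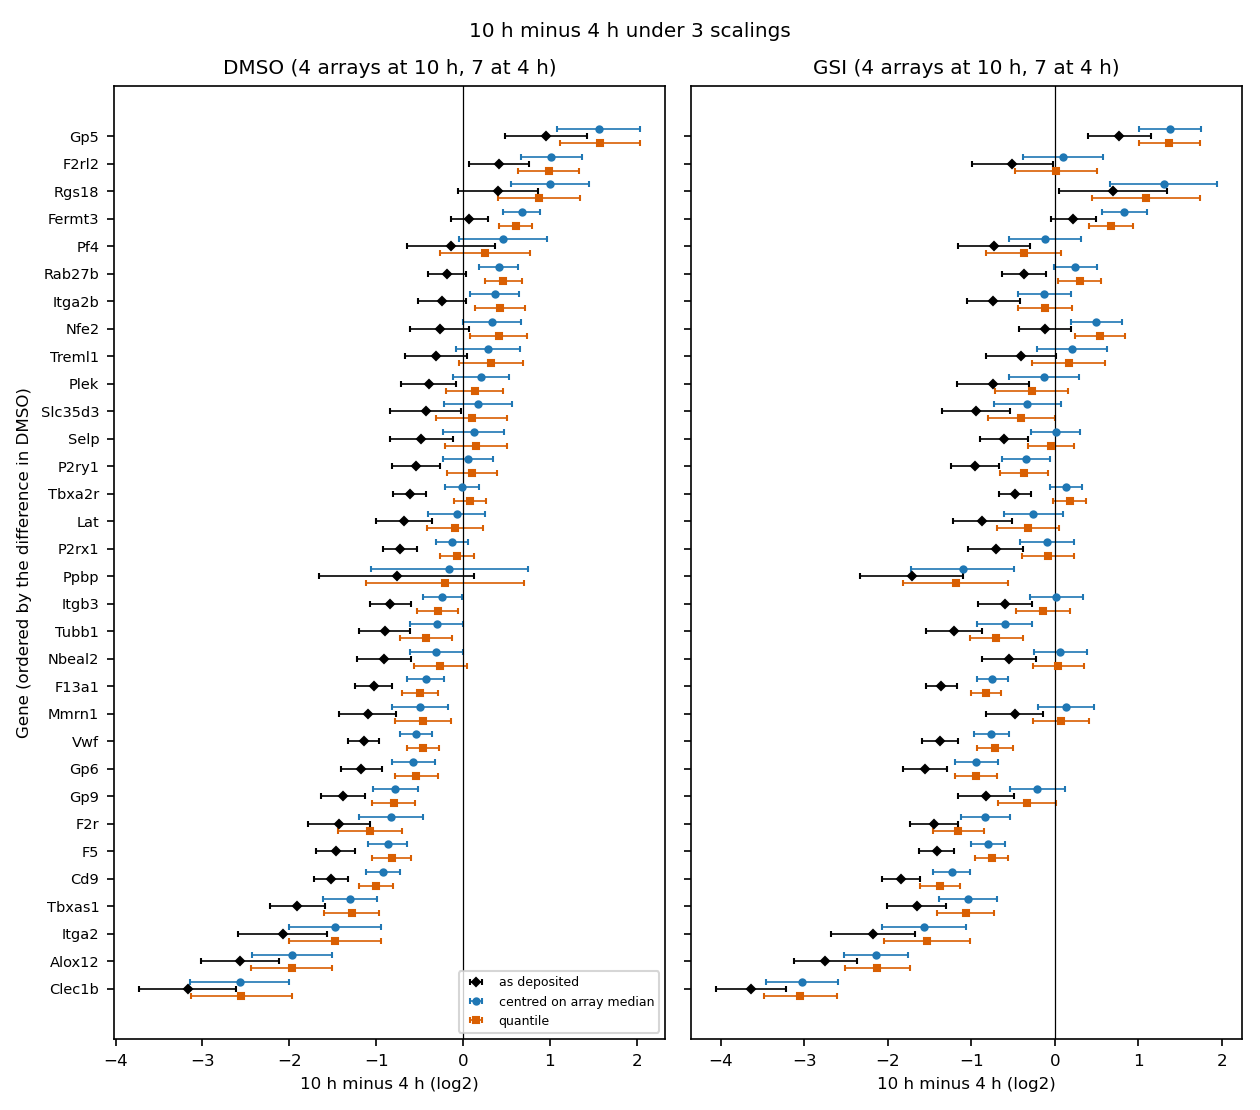
Difference between 10 h and 4 h (log2, with SE) for each member in DMSO (left) and GSI (right), as deposited (black), centred on the array median (blue) and after quantile normalization (orange). Centring moves all members of a treatment by the same amount, and quantile normalization moves them by amounts that differ. Some genes near 0 change sign, while Clec1b, Alox12, Itga2 and Tbxas1 stay below 0 in each.

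Pf4 and Ppbp encode platelet chemokines stored in alpha granules. At 4 h Pf4 ran from 7.53 over a median of 9.82 to 10.85 in DMSO and from 8.41 over 9.79 to 11.04 in GSI. In pairs 1 to 4 at 10 h it was 10.24, 9.44, 9.36 and 9.08 in DMSO and 9.50, 9.05, 9.26 and 8.56 in GSI. The GSI culture was the lower one in each of these pairs, although the groups overlapped, and the difference of -0.44 ± 0.217 did not pass (adjusted p = 0.384). Ppbp had the widest range of all members in DMSO at 4 h. It ran from 4.89 in pair 1 over a median of 8.81 to 10.03 in pair 5, and in GSI at that time from 6.68 over 8.82 to 9.91. The 10 h values were 8.65, 8.396, 6.67 and 6.72 in DMSO and 7.64, 6.96, 7.65 and 5.32 in GSI, lower with GSI in 3 of 4 pairs (-0.72 ± 0.441, adjusted p = 0.491). It fell between 4 h and 10 h in GSI as deposited (-1.71 ± 0.616, adjusted p = 0.0256), but not after centring (-1.10, adjusted p = 0.15) or quantile normalization (-1.19, adjusted p = 0.158).

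Itga2b and Itgb3 form the platelet fibrinogen receptor, Itga2 is part of a collagen receptor, and Fermt3 (kindlin) activates integrins. None passed with GSI, and the 2 chains of the fibrinogen receptor differed in sign at 10 h. Itga2b was 6.69, 6.19, 6.68 and 6.37 in DMSO and 5.80, 5.86, 6.52 and 6.13 in GSI at 10 h, lower with GSI in 4 of 4 pairs (-0.40 ± 0.181, adjusted p = 0.328). Itgb3 was 7.13, 7.41, 7.59 and 7.47 in DMSO and 7.90, 7.55, 8.25 and 7.65 in GSI, higher in 4 of 4 pairs (0.43 ± 0.173, adjusted p = 0.267). Both sets of 4 arrays overlapped. At 4 h Itga2b ran from 5.90 over 6.79 to 7.45 in DMSO and from 5.89 over 6.86 to 7.78 in GSI, and Itgb3 from 7.55 over 8.19 to 8.81 and from 7.26 over 8.52 to 9.43. The difference of Itgb3 at 4 h was above 0 in pairs 2, 3, 4 and 7 (0.67, 0.62, 0.58 and 0.27) and below 0 in pairs 1, 5 and 6 (-0.25, -0.27 and -0.28). Between the times, Itgb3 fell in DMSO as deposited (-0.84 ± 0.234, adjusted p = 0.00791) and did not pass after either other scaling (-0.24 and -0.29).

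Itga2 was the integrin gene with the largest fall over the longer culture. It ran from 5.33 over 7.14 to 8.49 in DMSO at 4 h and from 5.29 over 7.15 to 8.74 in GSI. The 10 h cultures gave 5.21, 6.17, 4.89 and 3.97 in DMSO and 5.55, 5.402, 4.76 and 4.37 in GSI. The lowest 4 h culture, that of pair 1, lay within the range at 10 h in both treatments. The difference of -2.08 ± 0.512 in DMSO (adjusted p = 0.00373) and of -2.17 ± 0.501 in GSI (adjusted p = 0.0021) stayed past the threshold after centring (-1.47 and -1.56) and quantile normalization (-1.47 and -1.53). Fermt3 went the other way. It ran from 7.33 to 8.25 in DMSO and from 6.82 to 8.58 in GSI at 4 h, and from 7.46 to 8.38 and from 7.86 to 8.39 at 10 h. As deposited it did not pass (0.07 and 0.22), while after centring it was higher at 10 h by 0.68 in DMSO (adjusted p = 0.0179) and 0.83 in GSI (adjusted p = 0.0188). After quantile normalization it passed in DMSO only (0.61, adjusted p = 0.0277, and 0.67, adjusted p = 0.0605).

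Gp9 and Gp5 are the measured subunits of the receptor for von Willebrand factor. Gp9 at 10 h was 7.11, 6.87, 7.17 and 6.14 in DMSO and 8.08, 7.75, 6.98 and 7.13 in GSI. It was higher with GSI in 3 of 4 pairs and lower in pair 3, and its difference of 0.66 ± 0.223 did not pass (adjusted p = 0.185). At 4 h Gp9 ran from 7.50 over 8.18 to 8.78 in DMSO and from 7.28 over 8.37 to 9.26 in GSI. Every DMSO array at 10 h lay below every DMSO array at 4 h (-1.38 ± 0.252, adjusted p = 0.000522), and the fall in DMSO passed under all 3 scalings. In GSI it fell as deposited (-0.82 ± 0.336, adjusted p = 0.0453) but not after centring (-0.21, adjusted p = 0.618) or quantile normalization (-0.34, adjusted p = 0.473). Whether the fall differs between the treatments is the same question as the difference of the GSI effects, which did not pass (0.56 ± 0.280, adjusted p = 0.554). Gp5 ran from 3.79 to 6.58 and from 4.503 to 6.97 at 4 h, and from 5.17 to 7.11 and from 6.26 to 6.53 at 10 h. Relative to the other genes it was the member that gained most: after centring it was higher at 10 h by 1.56 ± 0.480 in DMSO (adjusted p = 0.0166) and by 1.38 ± 0.373 in GSI (adjusted p = 0.00809), while as deposited neither passed (0.96 and 0.77).

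Gp6 is the platelet collagen receptor, Clec1b the receptor for podoplanin, Treml1 a receptor of the alpha granule membrane and Lat the adaptor through which Gp6 and Clec1b signal. With GSI none of the 4 passed at either time. Clec1b had the largest fall of all members between 4 h and 10 h. In DMSO it ran from 5.79 over 8.19 to 9.64 at 4 h and was 5.14, 5.03, 4.02 and 4.75 at 10 h, and in GSI it ran from 6.69 over 8.03 to 9.69 and was 4.33, 4.62, 4.26 and 4.15. In both treatments every 10 h array was below every 4 h array, a state that 10 members reached in DMSO, against 39.5% of all genes, and 7 in GSI, against 46.4%. The difference was -3.17 ± 0.560 in DMSO (adjusted p = 0.000419) and -3.64 ± 0.421 in GSI (adjusted p = 1.85e-05), and -2.57 and -3.03 after centring. Gp6 ran from 4.85 over 6.04 to 6.19 in DMSO and from 4.88 over 5.81 to 6.51 in GSI at 4 h. Its 10 h values were 4.83, 4.67, 4.45 and 4.54 in DMSO and 4.17, 4.62, 4.16 and 4.21 in GSI. The groups of both times did not overlap in either treatment, and Gp6 fell as deposited by 1.17 ± 0.237 on the log2 scale in DMSO (adjusted p = 0.00102) and by 1.55 ± 0.261 in GSI (adjusted p = 0.000239). After centring the fall passed in GSI (-0.94, adjusted p = 0.00856) and not in DMSO (-0.57, adjusted p = 0.0693).

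Lat ran from 6.59 over 7.75 to 8.64 in DMSO and from 6.52 over 7.75 to 9.04 in GSI at 4 h, and was 7.36, 6.86, 7.51 and 6.35 in DMSO and 7.08, 6.92, 6.74 and 6.71 in GSI at 10 h. Its fall in GSI as deposited (-0.87 ± 0.353, adjusted p = 0.0441) did not pass under the other scalings (-0.26 and -0.33). Treml1 ran from 5.82 to 7.74 and from 5.93 to 8.30 at 4 h and from 6.21 to 7.23 and from 6.45 to 6.77 at 10 h, and passed in no comparison.

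F2r and F2rl2 are thrombin receptors, P2rx1 and P2ry1 receptors for ATP and ADP, Tbxa2r the thromboxane receptor and Rgs18 a brake on signals from such receptors. With GSI none of the 6 passed. P2ry1 was the 1 member above 0 in 7 of 7 pairs at 4 h, as 1.01% of all genes were, and none was below 0 in all 7, as 0.807% of all genes were. It ran from 6.28 over 7.22 to 7.98 in DMSO and from 6.37 over 7.65 to 8.03 in GSI, with overlapping groups (0.31 ± 0.115, adjusted p = 0.999). At 10 h it was 6.91, 6.92, 6.42 and 6.21 in DMSO and 6.53, 6.52, 7.04 and 5.94 in GSI, higher with GSI in pair 3 alone (-0.11, adjusted p = 0.802). The pair differences of F2rl2 at 10 h ran from -1.53 in pair 2 to 0.07 in pair 4. It was 7.69, 8.04, 8.06 and 7.46 in DMSO and 6.61, 6.51, 8.00 and 7.53 in GSI at 10 h, low with GSI in the pairs of the first set (-0.65 ± 0.266, adjusted p = 0.273, and 0.003 within the second set). At 4 h it ran from 6.63 to 8.68 and from 6.66 to 9.25. In DMSO it was higher at 10 h after centring (1.02, adjusted p = 0.0283) and quantile normalization (0.99, adjusted p = 0.0489), and not as deposited (0.42, adjusted p = 0.313).

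F2r ran from 9.51 over 10.98 to 11.80 in DMSO and from 9.54 over 11.05 to 11.61 in GSI at 4 h. At 10 h it was 9.79, 9.90, 9.07 and 8.91 in DMSO and 9.68, 9.53, 9.34 and 9.30 in GSI. Pair 1 at 4 h lay within the range at 10 h, and the other 4 h cultures lay above it. The fall was -1.43 ± 0.354 in DMSO (adjusted p = 0.00388) and -1.44 ± 0.287 in GSI (adjusted p = 0.000772) as deposited; in GSI it passed under all 3 scalings, and in DMSO it did not after centring (-0.82, adjusted p = 0.0786). P2rx1 ran from 6.39 over 6.92 to 7.37 in DMSO and from 5.64 over 6.57 to 7.59 in GSI at 4 h, and was 6.10, 6.11, 6.05 and 6.38 in DMSO and 5.65, 5.91, 6.40 and 5.62 in GSI at 10 h. Its DMSO arrays at 10 h lay below those at 4 h by a narrow gap, and the fall of -0.73 ± 0.194 (adjusted p = 0.00597) shrank to -0.13 after centring. Tbxa2r ran from 5.88 over 6.14 to 6.71 in DMSO and from 5.58 over 6.24 to 6.46 in GSI at 4 h, and was 5.80, 5.99, 5.51 and 5.32 in DMSO and 6.20, 5.49, 5.39 and 5.47 in GSI at 10 h. Its falls as deposited (-0.61, adjusted p = 0.0146, and -0.48, adjusted p = 0.0441) were -0.01 and 0.13 after centring. P2ry1 fell in GSI as deposited (-0.96 ± 0.287, adjusted p = 0.0103) and not after centring (-0.34, adjusted p = 0.338). Rgs18 passed in no comparison; it ran from 6.11 to 9.18 and from 5.06 to 9.12 at 4 h and from 8.30 to 8.98 and from 8.31 to 9.68 at 10 h.

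Vwf, Selp, Mmrn1, F5 and F13a1 encode contents or membrane proteins of granules and clotting factors that megakaryocytes make or store. Mmrn1 encodes a large polymer-forming protein that binds factor V in alpha granules (Entrez 70945). At 10 h it was 5.95, 6.63, 6.20 and 5.30 in DMSO and 6.92, 7.19, 6.63 and 6.62 in GSI. The GSI culture was the higher one in 4 of 4 pairs, by 0.98, 0.56, 0.44 and 1.31, and the groups overlapped only where the highest DMSO array, that of pair 2, exceeded the lowest GSI array, that of pair 4. The rise was 0.82 ± 0.158, or 1.77-fold (limma adjusted p = 0.0343). It was 0.77 within the first set and 0.88 within the second. At 4 h Mmrn1 ran from 6.11 over 7.11 to 8.06 in DMSO and from 6.04 over 7.29 to 8.37 in GSI, higher with GSI in 5 of 7 pairs (0.20 ± 0.119, adjusted p = 0.999). Within DMSO it was lower at 10 h as deposited (-1.10 ± 0.331, adjusted p = 0.012), and within GSI it did not pass (-0.48, adjusted p = 0.228); after centring neither passed (-0.49 and 0.13).

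The calls at 10 h depended on the model and on single pairs. With no replicate block the adjusted p was 0.824 for Mmrn1, 0.879 for Tbxas1 and 0.830 for Slc35d3, and with a spread taken from the 10 h arrays alone it was 0.392, 0.392 and 0.138. After quantile normalization it was 0.0718, 0.0772 and 0.0772, and within a single set, which holds 2 pairs, none of the 3 passed (0.855, 0.867 and 0.813 in the first, 0.405, 0.564 and 0.223 in the second). With no intensity trend Slc35d3 alone was lost (0.0657). None of the 3 passed without pair 1 or without pair 4, Mmrn1 and Tbxas1 passed without pair 2, and Mmrn1 alone passed without pair 3. The sizes moved little: without each pair in turn they ran from 0.66 to 0.95 for Mmrn1, from 0.57 to 0.67 for Tbxas1 and from -0.99 to -0.85 for Slc35d3.

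**Figure D3:**
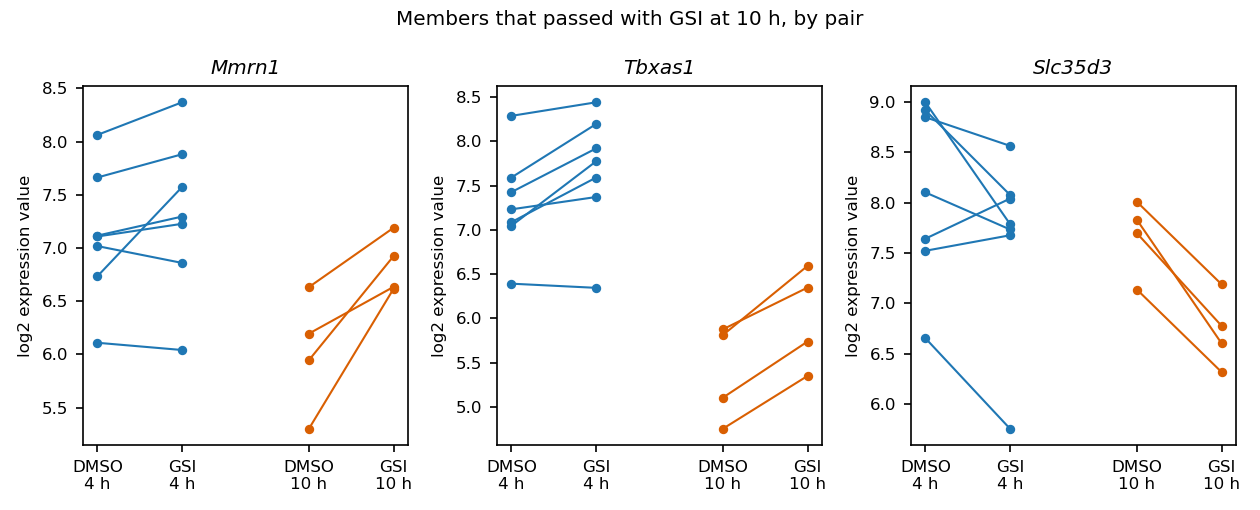
Log2 expression values of Mmrn1, Tbxas1 and Slc35d3 in every array, with lines joining the DMSO and GSI culture of a pair (blue, 4 h; orange, 10 h). At 10 h all 4 lines rise for Mmrn1 and Tbxas1 and all 4 fall for Slc35d3, and at 4 h the lines of each gene run both ways.

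Vwf was lower at 10 h. It ran from 5.70 over 6.17 to 6.65 in DMSO and from 5.71 over 6.36 to 6.89 in GSI at 4 h, and was 4.97, 5.15, 4.94 and 5.12 in DMSO and 5.08, 5.15, 4.84 and 4.86 in GSI at 10 h. The times did not overlap in either treatment (-1.14 ± 0.180, adjusted p = 0.000191, and -1.37 ± 0.217, adjusted p = 0.000155), and GSI made no difference that passed at 4 h (0.16 ± 0.096) or 10 h (-0.06 ± 0.128). In DMSO the fall did not pass after quantile normalization (-0.46, adjusted p = 0.0725). Selp ran from 6.64 over 6.96 to 8.25 in DMSO and from 6.96 over 7.14 to 8.14 in GSI at 4 h, and was 5.63, 6.17, 7.17 and 7.38 in DMSO and 5.96, 6.35, 7.32 and 7.36 in GSI at 10 h. At 10 h the arrays of the second set were higher than those of the first in both treatments. Selp was higher with GSI in 6 of 7 pairs at 4 h (0.29 ± 0.093), with an unadjusted p of 0.00754 and an adjusted p of 0.999.

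F5 ran from 5.58 over 6.41 to 6.84 in DMSO and from 5.72 over 6.37 to 6.91 in GSI at 4 h, and was 5.09, 5.15, 4.76 and 4.45 in DMSO and 5.07, 5.12, 4.91 and 4.88 in GSI at 10 h. The times did not overlap, and the falls of -1.47 ± 0.222 (adjusted p = 0.000147) and -1.42 ± 0.209 (adjusted p = 9.57e-05) passed under all 3 scalings. F13a1 ran from 4.495 over 4.92 to 5.83 in DMSO and from 4.54 over 5.07 to 5.71 in GSI at 4 h, and was 4.22, 4.08, 3.65 and 4.05 in DMSO and 3.62, 3.89, 3.83 and 3.70 in GSI at 10 h. Its fall passed under all 3 scalings in GSI (-1.36 ± 0.185 as deposited, adjusted p = 5.52e-05) and in DMSO as deposited only (-1.03 ± 0.214, adjusted p = 0.00123, and -0.43 after centring, adjusted p = 0.109).

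Rab27b, Nbeal2, Slc35d3 and Plek serve the making or release of granules: Rab27b directs dense granules, Nbeal2 is needed for alpha granules, and Plek is a substrate of protein kinase C in activated platelets. Slc35d3 (Entrez 76157) was 7.14, 7.83, 8.01 and 7.70 in DMSO and 6.32, 6.604, 7.19 and 6.78 in GSI at 10 h. The GSI culture was lower in 4 of 4 pairs, by 0.82 or more, and the groups overlapped only where the highest GSI array, that of pair 3, exceeded the lowest DMSO array, that of pair 1. The fall was -0.95 ± 0.202, a 1.93-fold decrease (limma adjusted p = 0.0459), and was -1.02 within the first set and -0.87 within the second. At 4 h Slc35d3 ran from 6.66 over 8.10 to 8.997 in DMSO and from 5.76 over 7.79 to 8.56 in GSI. The GSI partner was the lower one in 5 of 7 pairs and the higher in pairs 4 and 7 (-0.44 ± 0.152, unadjusted p = 0.0116, adjusted p = 0.999).

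Rab27b had the largest difference above 0 with GSI at 4 h among the members. It ran from 4.63 over 5.20 to 5.92 in DMSO and from 4.73 over 5.56 to 6.31 in GSI, and was higher in 6 of 7 pairs (0.39 ± 0.122, unadjusted p = 0.00596, adjusted p = 0.999). The values at 10 h were 5.13, 5.16, 4.92 and 4.77 in DMSO and 5.39, 4.88, 5.21 and 5.35 in GSI (0.21 ± 0.162, adjusted p = 0.592). Nbeal2 ran from 5.90 over 7.00 to 7.91 in DMSO and from 5.98 over 7.21 to 7.89 in GSI at 4 h, with overlapping groups (0.01 ± 0.107). At 10 h it was 5.99, 6.61, 6.20 and 5.82 in DMSO and 6.86, 6.71, 6.76 and 5.79 in GSI, higher in 3 of 4 pairs (0.37 ± 0.141, adjusted p = 0.239). Its fall between the times in DMSO (-0.91 ± 0.314, adjusted p = 0.0237) shrank to -0.31 after centring. Plek passed in no comparison over all sets; it ran from 7.48 to 9.22 and from 7.39 to 9.93 at 4 h and from 7.78 to 8.25 and from 7.22 to 8.54 at 10 h.

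Alox12, the platelet lipoxygenase, and Tbxas1, the thromboxane synthase, turn arachidonic acid into signalling lipids. Tbxas1 (Entrez 21391) was 5.81, 5.88, 5.11 and 4.75 in DMSO and 6.59, 6.35, 5.74 and 5.35 in GSI at 10 h. It was higher with GSI in 4 of 4 pairs, by 0.78, 0.47, 0.63 and 0.60, and the groups overlapped. In each treatment the arrays of the first set lay above those of the second. The rise was 0.62 ± 0.126, or 1.54-fold (limma adjusted p = 0.0398), with 0.63 within the first set and 0.61 within the second. At 4 h Tbxas1 ran from 6.39 over 7.23 to 8.29 in DMSO and from 6.34 over 7.77 to 8.44 in GSI, and was higher with GSI in 6 of 7 pairs. That difference of 0.37 ± 0.096 had the smallest p of the members at 4 h (unadjusted p = 0.00148, limma adjusted p = 0.897). Between the times it fell under all 3 scalings in both treatments (-1.91 ± 0.313, adjusted p = 0.000254, and -1.65 ± 0.350, adjusted p = 0.0012, as deposited).

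Alox12 had the second largest fall over time. It ran from 5.99 over 7.53 to 8.62 in DMSO and from 6.09 over 7.45 to 8.51 in GSI at 4 h, and was 4.53, 5.59, 4.52 and 4.26 in DMSO and 4.57, 4.54, 4.89 and 4.28 in GSI at 10 h. The times did not overlap (-2.57 ± 0.449, adjusted p = 0.000385, and -2.75 ± 0.378, adjusted p = 5.85e-05), and GSI made no difference that passed (0.02 ± 0.148 at 4 h and -0.15 ± 0.196 at 10 h).

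Nfe2 is the transcription factor subunit that drives platelet release, Tubb1 the platelet form of beta tubulin and Cd9 a surface tetraspanin. Nfe2 passed in no comparison. It ran from 4.43 to 6.61 and from 4.60 to 6.58 at 4 h, and from 5.38 to 6.06 and from 5.55 to 6.12 at 10 h. Tubb1 ran from 4.05 over 4.62 to 5.68 in DMSO and from 4.04 over 4.95 to 6.17 in GSI at 4 h, where its pair differences spread from -0.60 to 2.11. Its values at 10 h were 4.21, 3.67, 3.62 and 3.91 in DMSO and 3.63, 3.39, 4.14 and 3.76 in GSI. Its falls as deposited (-0.90, adjusted p = 0.018, and -1.21, adjusted p = 0.00628) did not pass after centring (-0.30 and -0.60). Cd9 ran from 8.76 over 8.90 to 9.63 in DMSO and from 8.67 over 8.99 to 9.96 in GSI at 4 h, and was 7.96, 7.54, 7.50 and 7.14 in DMSO and 7.52, 7.25, 7.42 and 7.11 in GSI at 10 h. The times did not overlap, and Cd9 fell under all 3 scalings (-1.52 ± 0.195, adjusted p = 4.86e-05, and -1.85 ± 0.228, adjusted p = 2.8e-05, as deposited).

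The members varied more between cultures of 1 group than most genes. At 4 h the median SD over the 7 cultures was 0.62 in DMSO and 0.69 in GSI, beside 0.19 for all genes in each, and the SD of each of the 32 was above the median of all genes. In DMSO 22 of the 32 and in GSI 27 of the 32 were in the top 10% of genes by SD. At 10 h the median SD was 0.35 in DMSO and 0.31 in GSI, beside 0.22 and 0.17. The genes were not matched for level, and such spread was not particular to the members. In DMSO at 4 h the SD of the list mean was 0.37 for the members. It was larger for hepatocyte (1.28), endothelial (0.78), neutrophil (0.72), erythroid (0.70), stromal (0.59), stem cell (0.42) and macrophage (0.40) markers. It was smaller for mast cell (0.31) and T cell (0.096) markers and the other megakaryocyte genes (0.13).

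**Figure D4:**
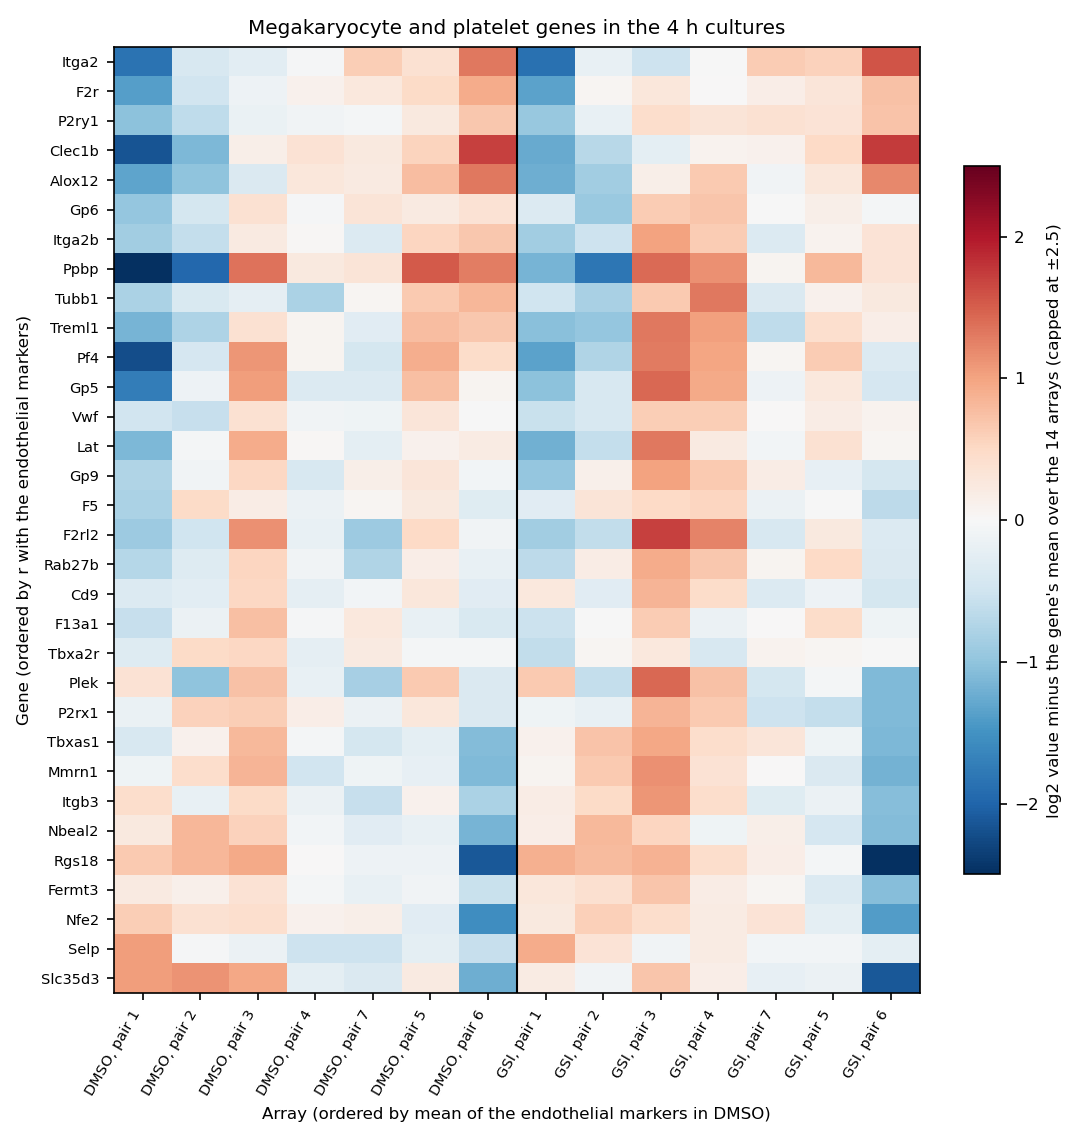
Level of each member in each 4 h culture, as log2 value minus the gene's mean over the 14 arrays (colour, capped at ±2.5), with DMSO left and GSI right and pairs ordered by their endothelial markers in DMSO. Genes are ordered by correlation with those markers: in pair 6 Itga2 and Clec1b are high and Rgs18, Nfe2 and Slc35d3 low, and in pair 1 Itga2 and Clec1b are at their lowest.

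Within this spread, 6 of the 32 members rose and 3 fell with the endothelial markers, and the others did not pass. Over the 7 DMSO cultures at 4 h the mean of the 14 endothelial markers ran from 7.54 in pair 1 to 10.01 in pair 6, and its Pearson correlation with each of the 32 genes was computed, with exact 2-sided permutation p-values adjusted over the 32. In this paragraph passed, rose and fell refer to this permutation test, at an adjusted p under 0.05. The correlation passed for 9 of the 32. The same correlation was not computed for all genes, so no share of all genes stands beside this count. Genes outside the members also differed along these cultures. Hes1 was lowest in pair 1 (7.49) and highest in pair 6 (9.76). The mean of the stem cell markers was lowest in pair 6 (6.897) and ran from 7.674 to 8.178 in the other pairs. Itga2 (r = 0.988, rho = 0.964, exact permutation p = 0.000397, adjusted p = 0.00423), F2r (r = 0.987, rho = 1.0, p = 0.000198, adjusted p = 0.00317) and P2ry1 (r = 0.975, rho = 1.0, p = 0.000198, adjusted p = 0.00317) rose with these markers; 0.000198 is the smallest p that these permutations can give. Clec1b (r = 0.963, rho = 0.964, adjusted permutation p = 0.00508), Alox12 (r = 0.958, rho = 0.964, adjusted permutation p = 0.00476) and Gp6 (r = 0.838, rho = 0.607, adjusted permutation p = 0.0487) did too. Slc35d3 (r = -0.874, rho = -0.857, adjusted permutation p = 0.0476), Selp (r = -0.873, rho = -0.857, adjusted permutation p = 0.0254) and Nfe2 (r = -0.863, rho = -0.929, adjusted permutation p = 0.0408) fell. By rho, Gp6, Slc35d3 and Selp did not pass (adjusted permutation p = 0.314, 0.0635 and 0.0635).

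Without the 2 cultures farthest from the median of the markers, r stayed above 0 for these 6 genes (0.587 to 0.967) and below 0 for these 3 (-0.834 to -0.706). In the GSI partners r was 0.996 for Itga2, 0.943 for Clec1b and 0.113 for Gp6. The endothelial markers also differed between the sets, with 7.54 in the first, 8.38 and 8.58 in the second and 8.90 to 10.01 in the third. The permutations did not take the sets into account. No set holds 6 cultures, so no correlation is given within one. In pairs 4, 7, 5 and 6 of the third set the markers were 8.899, 9.215, 9.248 and 10.006. F2r (10.98, 11.13, 11.36 and 11.80) and P2ry1 (7.22, 7.26, 7.56 and 7.98) had the same order there, while Itga2 (7.14, 7.79, 7.55 and 8.49) and Slc35d3 (7.64, 7.52, 8.10 and 6.66) did not follow it, in the direct or the opposite sense, in every culture. The relation was looked for after the values were seen. Mmrn1 and Tbxas1, which rose with GSI at 10 h, had r = -0.593 (adjusted permutation p = 0.245) and -0.476 (adjusted permutation p = 0.356).

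**Figure D5:**
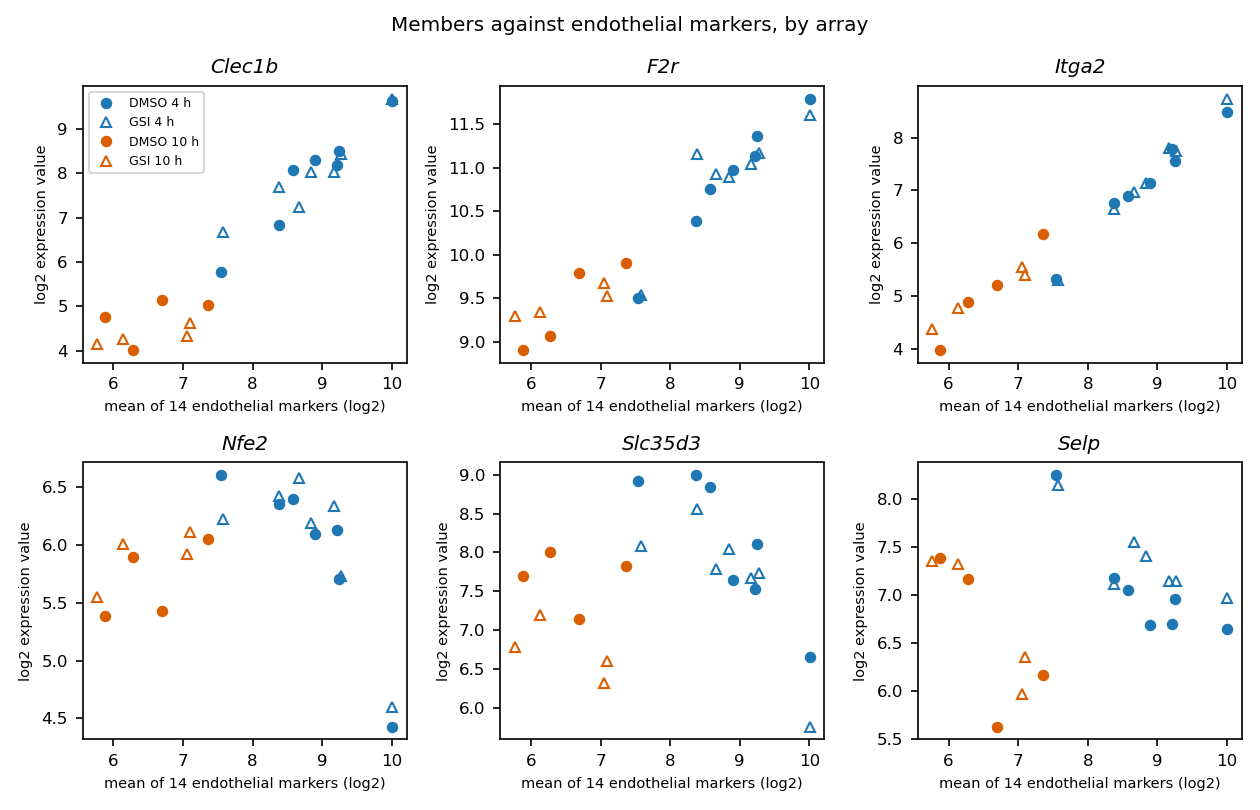
Log2 expression values of 6 members against the mean of 14 endothelial markers in every array (filled, DMSO; open, GSI; blue, 4 h; orange, 10 h). At 4 h Clec1b, F2r and Itga2 are highest in the cultures with the highest mean of these markers (10.01 in pair 6). Nfe2, Slc35d3 and Selp are lowest or near their lowest there.

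The other genes of this lineage were read from a list of 70, of which 64 were measured: regulators, receptors and signalling proteins, granule and secretion proteins, cytoskeleton and enzymes. With GSI at 4 h none passed. At 10 h 3 rose and none fell: Fli1, an ETS factor of megakaryocytes, by 0.56 ± 0.112 (limma adjusted p = 0.0369), Etv6, an ETS-family repressor, by 0.47 ± 0.098 (adjusted p = 0.0423), and Plcg2, the phospholipase downstream of Gp6 and Clec1b, by 0.68 ± 0.143 (adjusted p = 0.0442). Each was higher in 4 of 4 pairs, 4.69% of the list passed beside 0.667% of all genes, and with no replicate block no gene passed at 10 h. The median of the 64 was 0.08 at 10 h and 0.04 at 4 h. Gata1, the main factor of the erythroid and megakaryocyte lineages, was 7.02 ± 0.483 in DMSO and 6.97 ± 0.623 in GSI at 4 h (n = 7 each), and 7.87 ± 0.113 and 7.68 ± 0.115 at 10 h (n = 4 each). Runx1 was 8.47 ± 0.773 and 8.47 ± 0.852 at 4 h, and 7.91 ± 0.304 and 8.12 ± 0.369 at 10 h. Neither passed with GSI (-0.05 and -0.19 for Gata1, 0.00 and 0.21 for Runx1). Over time Gata1 rose as deposited in DMSO (0.85 ± 0.232, adjusted p = 0.00687) and GSI (0.71 ± 0.284, adjusted p = 0.0399), while Fli1 fell in both (-1.46 ± 0.213, adjusted p = 0.000113, and -0.97 ± 0.179, adjusted p = 0.000465). Relative to the median of all genes, these differences were 1.26 and 1.13 for Gata1 and -1.05 and -0.55 for Fli1.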

How the data were processed

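RNA of sorted cells was hybridised to 22 1-colour arrays. The authors deposited log2 values; RMA and Partek 6.6 are named as tools, per the submitters' processing notes; whether both times were normalized together, and the array's genome build, are not given in the sources used here. Values ran from 1.83 to 13.9. Of 41345 probes, 23521 carried 1 gene symbol, 1814 several and 16010 none; each of 22180 genes was read from its 1-symbol probe with the highest mean (1082 had several), with no filter on dim genes.

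limma 3.58.1 (R 4.3.3) with an intensity trend and Benjamini-Hochberg adjustment over all genes gave every test. One fit over all arrays, with the pair as a replicate block, gave the GSI effects and their difference; the times were compared within each treatment (11 arrays each). The design text states that each replicate held a DMSO and a GSI sample. Partners deviated together (r of 0.223 to 0.872 at 4 h and 0.213 to 0.449 at 10 h), and 6 of 7 and 4 of 4 pairs matched their own partner best. Since the labels do not say how replicates were separated further, p-values measure the spread between these samples, and the number of arrays limits precision. No 2 arrays were copies (highest correlation 0.988). On simulated data a log2 change of 1 in 100 genes was recovered in 98% at 4 h, 94% at 10 h, 87% for their difference, 97% for time in DMSO and 95% in GSI, each over 22180 genes. The simulated spread was the one left after the pair block, without the spread between cultures. The time tests bear that spread, so the 97% and 95% are too high for genes that vary between cultures, such as these members.

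The members and lists were chosen with earlier results of these data known. All 35 members are accounted for; values in every array, or the lowest, median and highest, are given for members that passed in any comparison, the 5 with the smallest p for GSI at each time, and Pf4, Itga2b, Gp9, Vwf and Selp. Of the other megakaryocyte genes, those that passed with GSI and Gata1, Fli1 and Runx1 are named; 1 further gene of that rule is not reported here. Alternatives were quantile normalization, centring, the mean over probes, a filter on dim genes, no trend, other blocks, a spread set by time, single sets of arrays and leaving out each pair.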

Additional observations from a re-analysis of the deposited data

Results flagged for a closer look

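In 10 of 128 groups of one gene's values (7.81%), 1 culture stood apart from the rest beyond Dixon's 95% critical value; chance flags about 1 in 20 groups. Pair 6 at 4 h gave 5 of these. Its DMSO culture was lowest for Rgs18 (6.108, next 8.093) and Nfe2 (4.429, next 5.707), and its GSI culture was lowest for Rgs18 (5.057, next 8.168), Nfe2 (4.597, next 5.735) and Slc35d3 (5.757, next 7.677). This pair also had the highest mean of the endothelial markers in DMSO (10.01), and the part of endothelial RNA in these values was not tested. Pair 1 at 4 h held the highest Selp in DMSO (8.25, next 7.178) and the lowest F2r in GSI (9.541, next 10.89). At 10 h, the GSI culture of pair 2 was highest for Gp6 (4.616, next 4.21), that of pair 1 highest for Tbxa2r (6.198, next 5.485), and that of pair 4 lowest for Nbeal2 (5.787, next 6.708).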

How the results depend on the processing

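With GSI at 10 h the count of 3 members became 0 with no replicate block, with a spread set by time, after quantile normalization and within set 1 or set 2, and 0 to 2 without single pairs; the cause was not tested, except that single sets hold fewer samples. With no replicate block the pairing is ignored, and all 148 genes called were lost; their number was 2 with a spread set by time, 37 after quantile normalization, 285 with the filter, 91 with no trend, 0 and 15 within the sets, and 27 to 228 without single pairs. The median of the members at 10 h was -0.27 within set 1 and 0.16 within set 2, and -0.11 to 0.09 without single pairs. At 4 h 3 members passed within set 2 (Itgb3, F2r and Plek), where 148 genes passed against 1 over all sets, and the median was 0.02 to 0.17 without single pairs. The median difference of the GSI effects was -0.26 to -0.08.

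Over time in DMSO, 11 members passed after either scaling, against 49.4% of all genes after centring and 33.9% after quantile normalization. Without single cultures 16 to 19 passed in DMSO, against 54.2% to 60.7% of all genes. In GSI 12 to 20 did so without single cultures, against 61.8% to 68.5%. The medians were -0.15 and -0.33 after quantile normalization, -0.14 and -0.17 after centring, and -0.82 to -0.60 and -0.93 to -0.65 without single cultures. Numbers shared across times name no shared culture; with them as a replicate block Rgs18 was -0.20 in DMSO and -0.068 in GSI, and Fermt3 -0.14 in GSI.

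Directions turned, with a call gained or lost or a move of at least 1 SE, as follows. After centring, time in GSI gave Selp 0.0072, Itgb3 0.014, Nbeal2 0.065, F2rl2 0.10, Mmrn1 0.13, Tbxa2r 0.13, Treml1 0.20, Rab27b 0.25 and Nfe2 0.50, and in DMSO P2ry1 0.058, Selp 0.12, Slc35d3 0.17, Plek 0.21, Treml1 0.29, Nfe2 0.33, Itga2b 0.36, Rab27b 0.41 and Pf4 0.46. After quantile normalization GSI gave F2rl2 0.012, Nbeal2 0.039, Mmrn1 0.072, Treml1 0.16, Tbxa2r 0.18, Rab27b 0.30 and Nfe2 0.54, and DMSO Tbxa2r 0.076, Slc35d3 0.10, P2ry1 0.11, Plek 0.13, Selp 0.15, Treml1 0.33, Nfe2 0.41, Itga2b 0.42 and Rab27b 0.46. GSI at 10 h within set 1 gave Rab27b -0.011, F2r -0.24 and Gp5 -0.63, and within set 2 F2rl2 0.0030, Itga2 0.13, P2ry1 0.17, Alox12 0.20, Treml1 0.28 and Plek 0.40. At 4 h within set 2 it gave Pf4 -0.064 and Gp6 -0.12, and within set 3 Plek -0.025, Cd9 -0.042, Itga2b -0.046, Fermt3 -0.074, Clec1b -0.10, F2r -0.14, Alox12 -0.14 and Ppbp -0.26. Without single pairs or cultures, the range crossed 0 for 10 members with GSI at 10 h, 14 at 4 h, 10 in the difference of effects, and 2 and 1 over time in DMSO and GSI. Those that turned by at least 1 SE were at 10 h Alox12 (-0.33 to 0.14), Gp5 (-0.45 to 0.28), Itga2 (-0.18 to 0.20), Lat (-0.33 to 0.049) and Tbxa2r (-0.16 to 0.14), at 4 h Ppbp (-0.13 to 0.43), Rgs18 (-0.093 to 0.15) and Tubb1 (-0.13 to 0.32), and in the difference of effects Alox12 (-0.36 to 0.12) and Itga2 (-0.24 to 0.14).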
